A study of Mus musculus with 257 samples.

Results

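Cerebella of mice carrying the Ptch1 allele of the Sonic hedgehog (Shh) medulloblastoma model, a genotype named BPtch, were compared with wild-type (WT) cerebella at postnatal day 5 (P5). The comparison took every cerebellar library labelled BPtch at P5 and every one labelled WT at P5, 5 of each, out of 257 libraries in the series. In the developing cerebellum Purkinje cells secrete Shh, which binds Patched 1 (Ptch1) on granule cell progenitors of the external granular layer. Bound Ptch1 no longer holds back Smoothened (Smo), the Gli transcription factors are turned on, and the progenitors keep dividing. Ptch1 is itself a target of the pathway and damps it, and loss of its function in this lineage is a well known origin of medulloblastoma.

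The series sequenced total RNA from bulk mouse cerebellum and from medulloblastomas in lines with and without floxed Ddx3x, an X-linked RNA helicase gene. BPtch libraries carry the Ptch1 allele and, by the design text, no perturbation of Ddx3x. WT libraries carry the genotype label WT and the model label Normal_dev, and the labels do not say whether they carry a recombinase. Perturbations were aimed at cells positive for Blbp, the radial glial and progenitor protein encoded by Fabp7, but the labels of these groups state neither the recombinase nor which exons of Ptch1 the allele alters. BPtch and WT cerebella at embryonic stage E16.5 and at P13, 5 libraries in each group, were used to see how the difference varied with age. A second pair of P5 groups, 5 BPtchD-FLPlus and 5 BD-FLPlus libraries, also differs by the Ptch1 allele. By that label both groups carry 1 floxed and 1 intact copy of Ddx3x. Xist was high in all 10 of those libraries, and they share no library with the first pair. Each P5 library carries its own animal number and no litter is given, whereas the 5 BPtch embryos at E16.5 share 1 animal number and WT replicates 2 and 3 at E16.5 share another. The titles of BPtch P13 replicates 3 and 4 read P14 where another label reads P13.

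BPtch libraries held 19401526 to 30204849 counts and WT libraries 17899230 to 25640752. Mitochondrial genes took 1.89% to 3.58% of counts in BPtch and 0.543% to 2.599% in WT. Levels of Xist and Ddx3y marked 2 BPtch and 3 WT libraries as female and 3 BPtch and 2 WT libraries as male. In the order of deposit the library titles run through the alphabet 4 times, and each such listing run is a possible batch. BPtch replicates 2 and 3 stood in run 3 and replicates 1, 4 and 5 in run 4, whereas WT libraries stood in runs 1 and 2, so the listing run and the genotype cannot be told apart. Pax6, a granule lineage factor, was present in every WT library, at 304, 229, 330.0, 222 and 157 counts per 1e+06 counts of the library (CPM) in replicates 1 to 5. In BPtch replicates 1 to 5 Pax6 was at 280, 19.2, 53.8, 132 and 265 CPM, and replicates 2, 3 and 4 lay under every WT library.

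BPtch replicates 2 and 3 stood apart from the other BPtch and WT libraries at P5 before any test. On an axis of 367 genes that differ between WT P5 (mean set to 0) and WT P13 (mean set to 1), they lay at 0.51 and 0.38. The other 3 BPtch libraries lay between -0.027 and 0.12 and the WT libraries between -0.13 and 0.090. The shift came from genes that are lower at P13: over those 250 genes the positions were 0.78 and 0.57, and over the 117 genes that are higher at P13 they were 0.043 and 0.060. Over the genes that are lower at P13, BPtch replicate 4 lay in between, at 0.22, and the highest WT library at 0.11. The axis genes were picked with the WT P5 libraries, whose mean was set to 0, so those libraries lie near 0 by construction. The highest of them ranked 41 among all 60 P5 cerebella of the series, whose median position was 0.18. BPtch replicates 2 and 3 ranked 3 and 14, and positions ran up to 0.58. Mitochondrial genes took 3.58% and 3.33% of their counts and the 10 most abundant genes 4.41% and 4.22%, the highest values of the 10 libraries. The part of these properties in the results was not tested. Fold changes and medians are given with all 5 BPtch libraries and, for comparison, without these 2 shifted libraries. All p-values rest on how much single libraries of a group differ, which may be partly technical.

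**Figure D1:**
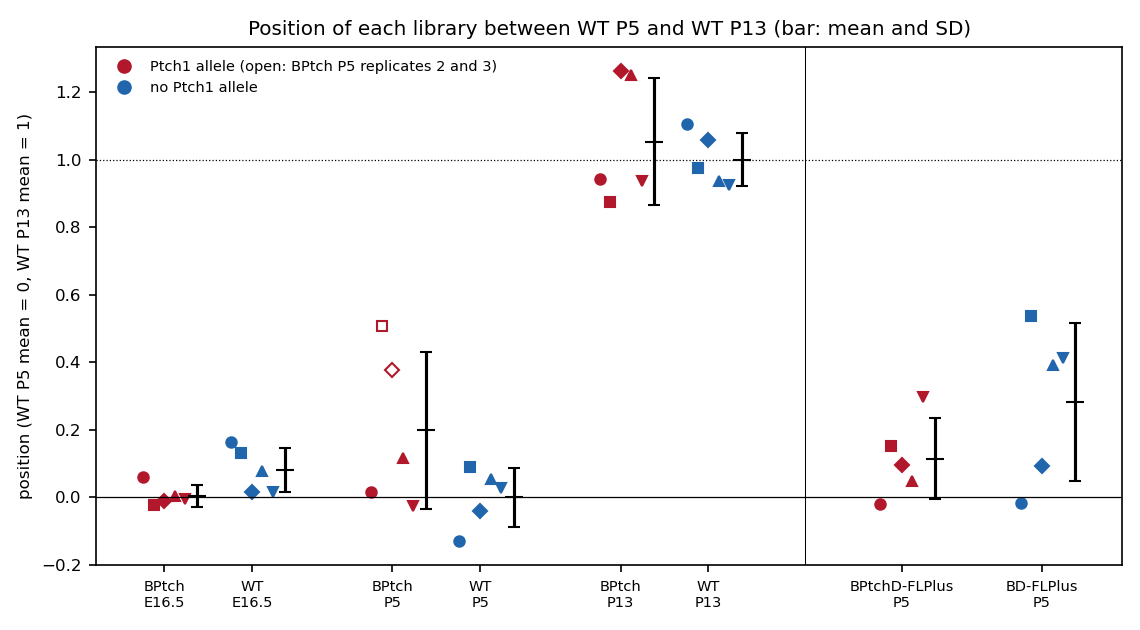
Position of each library (vertical axis, no unit) on the axis from the WT P5 mean at 0 to the WT P13 mean at 1, for BPtch and WT at E16.5, P5 and P13 and, right of the line, for BPtchD-FLPlus and BD-FLPlus at P5. Each point is a library and the bar is the mean and SD; BPtch P5 replicates 2 and 3 (open symbols) lie at 0.51 and 0.38, above all WT P5 libraries, and 3 of the 5 BD-FLPlus libraries lie between 0.39 and 0.54.

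Ptch1, the gene of the model allele (chromosome 13, 63508328 to 63573598, minus strand, GRCm38), was measured at 247, 163, 159, 133 and 203 CPM in BPtch replicates 1 to 5, against 228, 195, 250.3, 194 and 192 CPM in WT replicates 1 to 5. The groups overlapped: BPtch replicate 1 was near the top of the WT range, and BPtch replicates 2, 3 and 4 lay under it. The log2 fold change was -0.16 (95% interval -0.48 to 0.16), with an adjusted p of 0.558 (edgeR), and -0.11 (95% interval -0.50 to 0.27) without BPtch replicates 2 and 3. The count takes in all exons and overlaps the annotated gene A930032L01Rik, so it does not check the genotype labels.

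No gene passed the test between BPtch and WT cerebella at P5. With edgeR's quasi-likelihood test and Benjamini-Hochberg adjustment, 0 of 18472 genes (0%) had an adjusted p under 0.05, and the smallest adjusted p was 0.329. At an unadjusted p under 0.05 there were 2757 genes, 14.9% of those tested. DESeq2 called 47 of 18451 (0.255%), 17 higher and 30 lower in BPtch. Without BPtch replicates 2 and 3 the edgeR count was again 0, of 18908 genes (0%), and the number with an unadjusted p under 0.05 was 620. The median log2 fold change of all genes was -0.014. The intervals show how large a difference could have been missed: the 95% interval of the log2 fold change lay within -1 to 1 for 14040 genes (76.0%), and its median half-width was 0.39. Every BPtch library lay above every WT library for 138 genes (0.747%), and every one lay below for 261 genes (1.41%).

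None of the 18 genes of the hedgehog pathway list, all of which were tested, passed the test (edgeR, 0 of 18), and none was called by DESeq2. Of the 18, 17 had a log2 fold change below 0, and 5 (Boc, Kif7, Gli3, Evc and Evc2) had an unadjusted p under 0.05, beside 14.9% of all genes tested (edgeR). Without BPtch replicates 2 and 3 the number was 2 of 18, beside 3.28% of all genes. Their median was -0.44, beside -0.014 over all genes, and -0.21 without BPtch replicates 2 and 3. For all 18 genes the upper end of the 95% interval was under a 2-fold higher level in BPtch; the highest was 0.31 on the log2 scale. Per kilobase of exon, the WT means ran from 1.36 CPM for Hhip to 23.1 CPM for Boc. In BPtch the highest mean level per kilobase was that of Ptch1, at 12.8 CPM, beside 12.6 CPM for Boc. In bulk tissue, fewer cells of a type and less RNA per cell cannot be told apart, here or in the lists that follow.

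Of the ligand and its co-receptors, Boc had the log2 fold change farthest from 0. Shh, the ligand, was low in both groups, at 3.57 ± 0.939 CPM in BPtch and 4.43 ± 0.846 CPM in WT (SD, n = 5 each), with a log2 fold change of -0.23 (95% interval -0.68 to 0.21, and -0.29 without the 2 shifted libraries). Boc, a co-receptor that binds Shh, was at 83.95, 17.99, 29.3, 57.2 and 92.8 CPM in BPtch replicates 1 to 5, against 128, 105, 119.9, 85.9 and 74.6 CPM in WT. BPtch replicates 2 and 3 were lowest by a wide margin, and BPtch replicates 1 and 5 lay inside the WT range. For Boc the log2 fold change was -0.82 (95% interval -1.60 to -0.035) with all libraries and -0.38 (95% interval -0.79 to 0.031) without those replicates.

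Hhip, a decoy receptor that binds Shh and is induced by it, had means of 10.3 ± 2.84 CPM in BPtch and 12.3 ± 1.47 CPM in WT (SD, n = 5 each) and a log2 fold change of -0.19 (95% interval -0.57 to 0.20, and -0.17 without the 2 shifted libraries). The other co-receptors, Cdon and Gas1, had log2 fold changes of -0.17 (95% interval -0.63 to 0.29, and -0.20 without the 2 shifted libraries) and -0.32 (95% interval -0.71 to 0.068, and -0.21 without the 2 shifted libraries). Smo, the transducer that Ptch1 inhibits, was at 71.9, 28.97, 41.1, 56.97 and 83.8 CPM in BPtch, against 103, 63.7, 93.6, 77.7 and 61.5 CPM in WT. Replicates 2, 3 and 4 of BPtch lay under all WT libraries and replicates 1 and 5 among them. For Smo the log2 fold change was -0.44 (95% interval -0.97 to 0.089, and -0.15 without the 2 shifted libraries), with an adjusted p of 0.377 (edgeR). Disp1, which releases Shh from the cells that make it, was the 1 gene of the list with a value above 0, 0.035 (95% interval -0.24 to 0.31, and -0.0022 without the 2 shifted libraries).

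The Gli factors, which carry the signal to the nucleus, ranged more widely among BPtch libraries than among WT libraries. Gli1, an activator and the most used readout of the pathway, was at 59.1, 6.19, 12.8, 36.7 and 65.1 CPM in BPtch replicates 1 to 5, against 93.02, 91.4, 84.5, 43.8 and 50.4 CPM in WT. Gli2, the main activator in granule progenitors, was at 69.3, 8.20, 14.7, 43.5 and 72.4 CPM in BPtch, against 91.5, 61.6, 115, 69.2 and 66.8 CPM in WT. In both genes BPtch replicates 2 and 3 had less than any WT library by several fold, replicate 4 was also under the WT range, and replicates 1 and 5 lay inside it. The log2 fold change of Gli1 was -0.97 (95% interval -2.08 to 0.15), adjusted p 0.368, and that of Gli2 -0.92 (95% interval -1.98 to 0.14), adjusted p 0.366 (edgeR). With BPtch replicates 2 and 3 left out these values were -0.41 and -0.38, with adjusted p-values of 0.997 and 0.997 (edgeR). Gli1 overlaps the annotated gene Arhgap9, and without strand the reads of the overlap cannot be told apart.

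Gli3, which acts mostly as a repressor, was at 28.3, 14.02, 17.02, 27.2 and 32.3 CPM in BPtch and 37.9, 28.6, 36.1, 32.3 and 32.2 CPM in WT, with a log2 fold change of -0.43 (95% interval -0.85 to -0.011, and -0.17 with an interval that includes 0 without the 2 shifted libraries). Only BPtch replicate 5 reached the WT range. Sufu, which holds Gli proteins in the cytoplasm, was at 103, 24.1, 34.9, 59.8 and 100.4 CPM in BPtch, against 126, 85.6, 142, 100.3 and 85.98 CPM in WT, and BPtch replicates 1 and 5 lay in the WT range. The Sufu log2 fold change was -0.70 (95% interval -1.44 to 0.043, and -0.29 without the 2 shifted libraries). Kif7, the ciliary kinesin that organises Sufu and Gli at the tip of the primary cilium, had the smallest unadjusted p of the list, 0.00764, with an adjusted p of 0.329 (edgeR). Kif7 was at 12.3, 7.37, 9.15, 11.3 and 13.97 CPM in BPtch, against 18.8, 19.6, 18.4, 14.05 and 12.01 CPM in WT, and BPtch replicates 1 and 5 overlapped the lowest WT library. Its log2 fold change was -0.54 (95% interval -0.91 to -0.17) with all libraries and -0.37 (95% interval -0.72 to -0.022) without BPtch replicates 2 and 3. Kif7 overlaps the annotated genes 9330171B17Rik and Ticrr, and without strand the reads of the overlap cannot be told apart.

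Evc and Evc2, partner proteins at the ciliary base through which Smo acts, had log2 fold changes of -0.58 (95% interval -1.08 to -0.084, and -0.31 with an interval that includes 0 without the 2 shifted libraries) and -0.45 (95% interval -0.76 to -0.13, and -0.39 without the 2 shifted libraries). Evc2 was at 10.1, 9.33, 8.66, 10.7 and 12.02 CPM in BPtch, against 14.7, 20.6, 13.7, 12.9 and 11.5 CPM in WT, and of the BPtch libraries only replicate 5 overlapped WT. Evc overlaps the annotated genes Crmp1 and Gm42935 and Evc2 overlaps Gm15732, with the same limit as for Kif7. Gpr161, a ciliary receptor that restrains the pathway, and Stk36, a kinase of the Fused family, had log2 fold changes of -0.024 (95% interval -0.31 to 0.26, and 0.043 without the 2 shifted libraries) and -0.16 (95% interval -0.41 to 0.091, and -0.039 without the 2 shifted libraries).

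**Figure D2:**
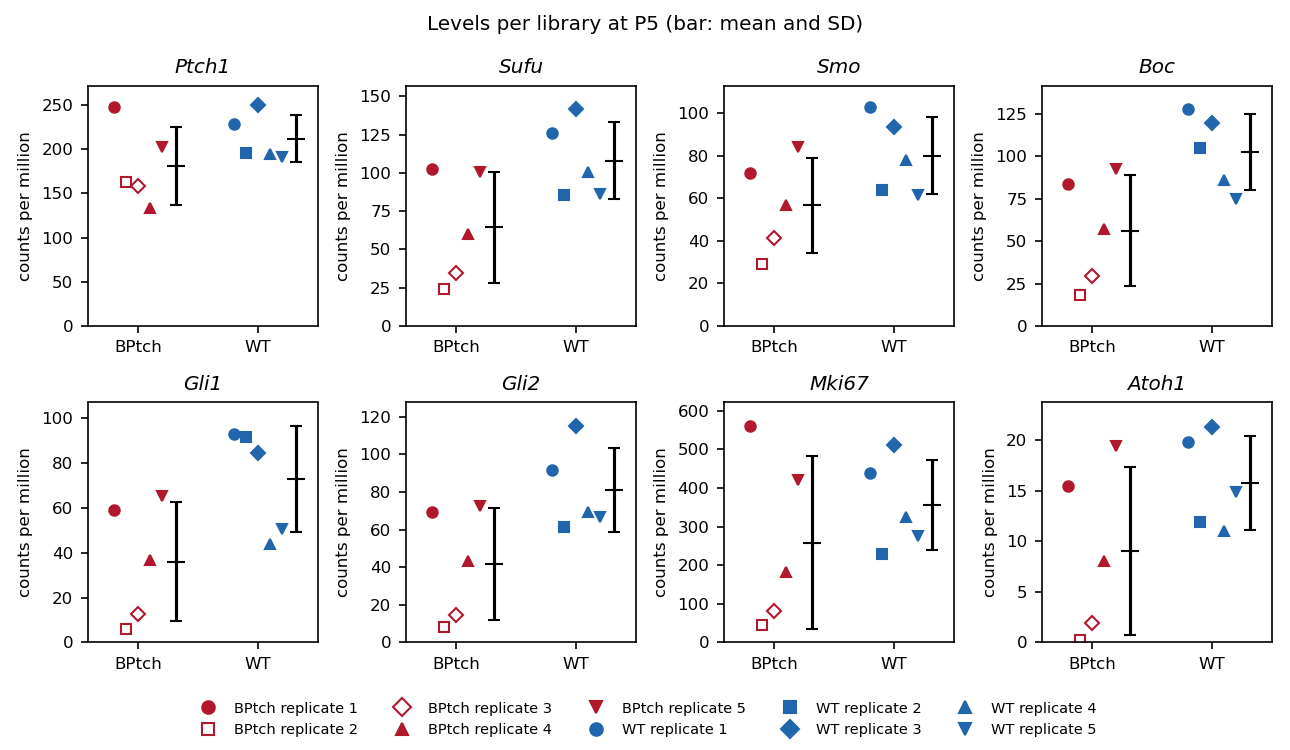
Levels in CPM (vertical axes, starting at 0) of Ptch1, Sufu, Smo, Boc, Gli1, Gli2, Mki67 and Atoh1 in each BPtch and WT library at P5. Each point is a library and the bar is the mean and SD (n = 5); BPtch replicates 2 and 3, drawn open, have the lowest values of Sufu, Smo, Boc, Gli1, Gli2, Mki67 and Atoh1.

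**Figure D3:**
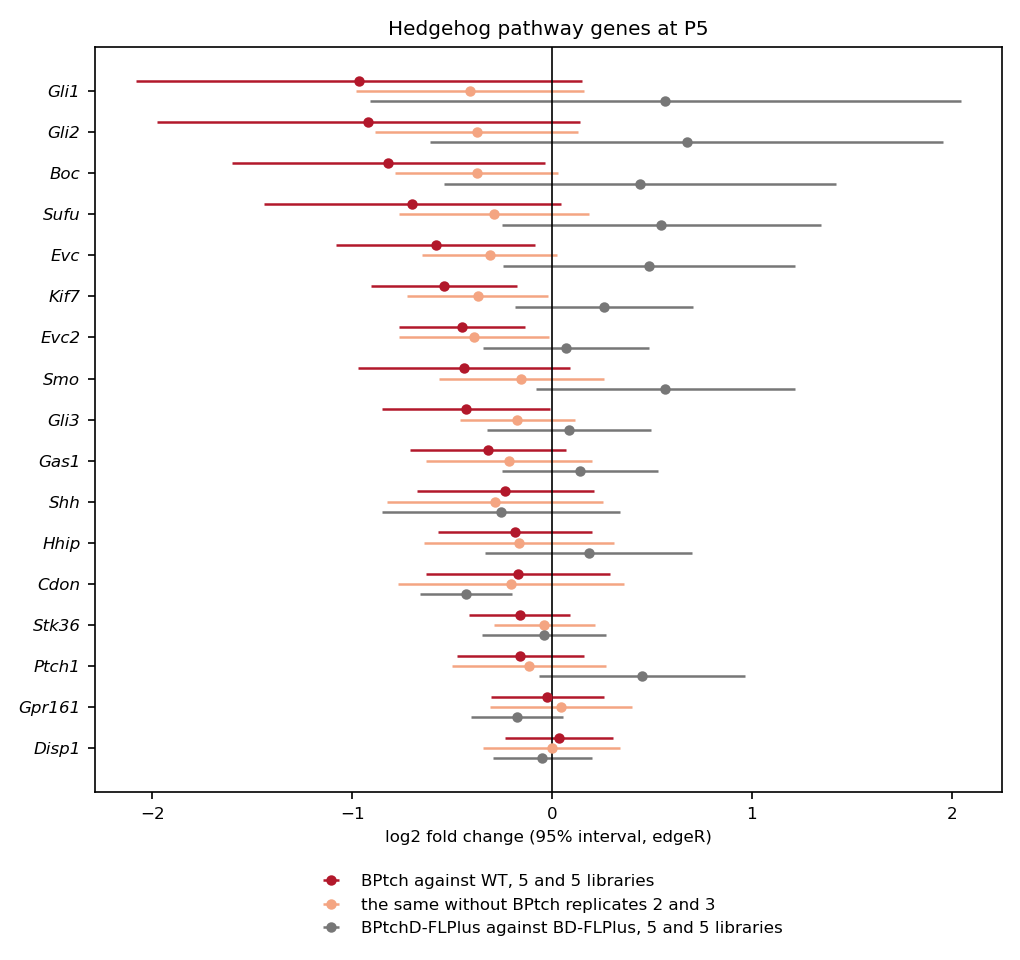
Log2 fold changes (horizontal axis) with 95% intervals from edgeR for 17 of the 18 hedgehog pathway genes at P5, for BPtch against WT with 5 libraries each, for the same without BPtch replicates 2 and 3, and for BPtchD-FLPlus against BD-FLPlus with 5 libraries each. The values lie mostly left of 0 in BPtch against WT (median of the 18 genes -0.44) and mostly right of it in the FLPlus groups (median of the 18 genes 0.22).

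Hedgehog targets, proliferation genes and granule progenitor markers followed the same libraries. None of the 16 targets, 16 proliferation genes or 12 progenitor markers, all tested, passed the test (edgeR). The numbers with an unadjusted p under 0.05 were 1, 0 and 1, beside 14.9% of all genes tested (edgeR). The median log2 fold changes were -0.59 for targets, -0.58 for proliferation and -0.76 for progenitor markers. When BPtch replicates 2 and 3 were left out they were -0.15, -0.11 and -0.27. These lists share members such as Gli1 and Atoh1, and 6, 14 and 6 of their members belong to the axis that sets BPtch replicates 2 and 3 apart.

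Mki67, a marker of dividing cells, was at 559.5, 45.5, 80.9, 183 and 422 CPM in BPtch replicates 1 to 5, against 439, 229.9, 510.4, 324 and 276 CPM in WT. BPtch held both the highest and the lowest library of the 10. For Mki67 the log2 fold change was -0.44 (95% interval -1.65 to 0.78) with all libraries and 0.13 (95% interval -0.63 to 0.88) without BPtch replicates 2 and 3. Atoh1, the transcription factor that defines granule progenitors, was at 15.4, 0.258, 1.94, 8.04 and 19.5 CPM in BPtch, against 19.8, 11.9, 21.3, 10.98 and 14.9 CPM in WT, and was close to 0 in BPtch replicate 2. Its log2 fold change was -0.77 (95% interval -2.31 to 0.76, and -0.13 without the 2 shifted libraries).

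Mycn, a transcription factor that drives progenitor growth and is a target of Shh, was at 101, 13.3, 21.9, 56.05 and 103 CPM in BPtch, against 135, 81.1, 131, 76.8 and 83.8 CPM in WT. Ccnd1, the cyclin that Shh induces, had means of 97.5 ± 42.8 CPM in BPtch and 150.1 ± 39.1 CPM in WT (SD, n = 5 each) and a log2 fold change of -0.57 (95% interval -1.15 to 0.016, and -0.25 without the 2 shifted libraries). In both genes BPtch replicates 2 and 3 were lowest and BPtch replicates 1 and 5 lay within the WT range. Among the members with the smallest adjusted p of their lists, the mitotic transcription factor Foxm1 had a log2 fold change of -0.70 (95% interval -1.57 to 0.17, and -0.23 without the 2 shifted libraries) and the mitotic cyclin Ccnb2 one of -0.71 (95% interval -1.57 to 0.15, and -0.24 without the 2 shifted libraries). Of the transcription factors of the granule lineage, Zic2 was at -0.96 (95% interval -1.97 to 0.040, and -0.46 without the 2 shifted libraries) and Barhl1 at -0.84 (95% interval -1.74 to 0.047, and -0.36 without the 2 shifted libraries). In these 4 genes BPtch replicates 2 and 3 lay under all WT libraries. Sfrp1, a secreted Wnt modulator and Shh target, was above the WT mean in BPtch replicates 1 and 5, at 188, 31.6, 50.9, 84.4 and 155 CPM in BPtch, against 146, 74.7, 189, 122 and 118 CPM in WT.

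The sums of the lists show the same order of libraries. Summed proliferation genes gave 2094, 275, 426, 901 and 1877 CPM in BPtch replicates 1 to 5, against 2040.3, 1243, 2153, 1458 and 1254 CPM in WT. Summed progenitor markers gave 2405, 304, 609.6, 1251 and 2359 CPM in BPtch, against 2781, 1807, 3203, 2118 and 1769 CPM in WT. BPtch replicates 1 and 5 were within the WT range in both sums, replicate 4 was under it, and replicates 2 and 3 were lowest.

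**Figure D4:**
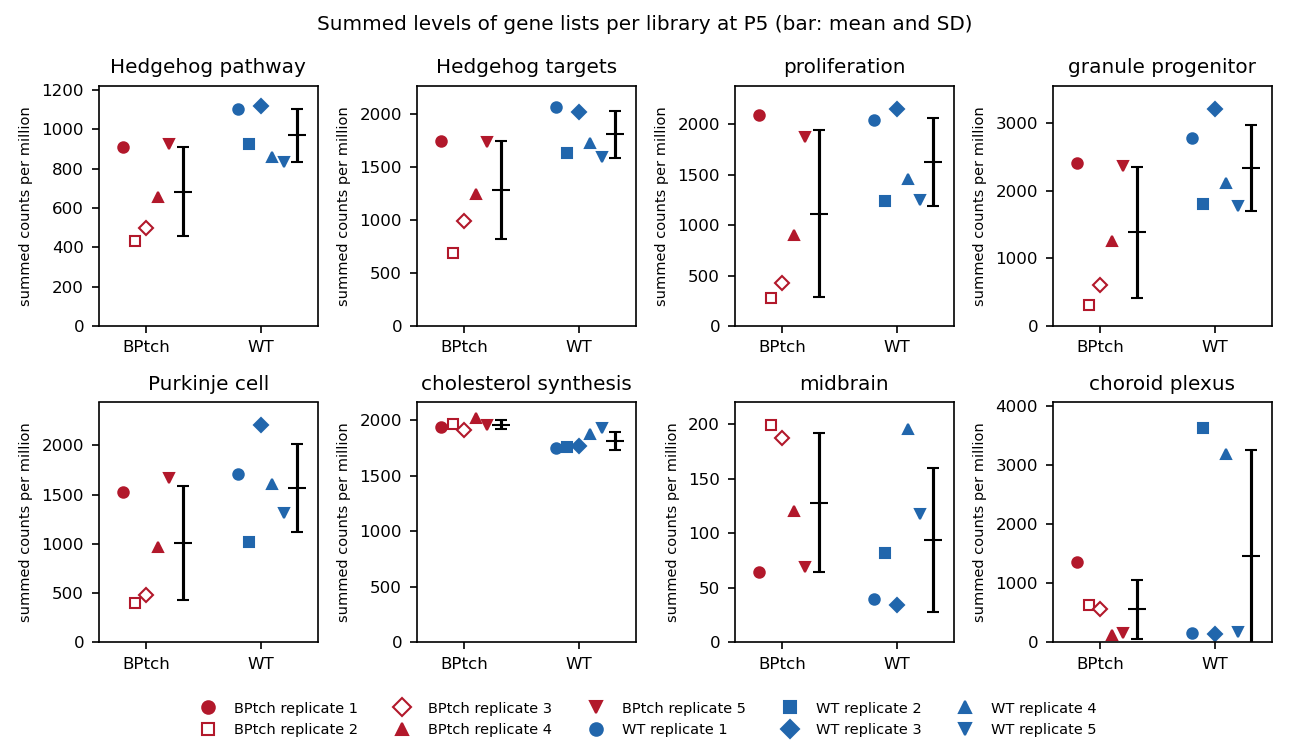
Summed levels in CPM (vertical axes, starting at 0) of 8 gene lists in each BPtch and WT library at P5; points are libraries and bars the mean and SD (n = 5). BPtch replicates 2 and 3, drawn open, are lowest for the pathway, target, proliferation, progenitor and Purkinje lists and, with WT replicate 4, highest for the midbrain list.

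Markers of other cerebellar neurons differed in both directions between the groups, and none passed the test (edgeR). Early granule neuron markers had a median of -0.41 (11 of 12 below 0), with Neurod2, a neuronal differentiation factor, at -0.98 (95% interval -2.08 to 0.11, and -0.46 without the 2 shifted libraries). Mature granule neuron markers had a median of -0.25, with 9 of 12 below 0. Among the 4 members with the smallest p, the calcium sensor gene Vsnl1, the calretinin gene Calb2 and the potassium channel gene Kcnd2 were at 0.96 (95% interval 0.089 to 1.83, and 0.38 with an interval that includes 0 without the 2 shifted libraries), 0.85 (95% interval 0.076 to 1.63, and 0.38 with an interval that includes 0 without the 2 shifted libraries) and 0.45 (95% interval 0.043 to 0.86, and 0.20 with an interval that includes 0 without the 2 shifted libraries). Reln, which encodes the secreted guidance protein reelin, was on the other side of 0, at -0.61 (95% interval -1.20 to -0.020, and -0.29 with an interval that includes 0 without the 2 shifted libraries). For Purkinje markers 11 of 14 values were below 0, the median being -0.34, and their sum was 1527, 400.0, 476, 972 and 1667 CPM in BPtch, against 1710.4, 1014, 2205, 1608 and 1313 CPM in WT. Skor2, a corepressor needed by immature Purkinje cells, had a log2 fold change of -0.85 (95% interval -1.67 to -0.019, and -0.39 with an interval that includes 0 without the 2 shifted libraries). Gng13, a G protein subunit gene of the same list with the smallest p there, was at 0.73 (95% interval 0.22 to 1.24, and 0.51 with an interval that includes 0 without the 2 shifted libraries), and Lhx5, a factor of Purkinje cell differentiation, at -0.38 (95% interval -0.74 to -0.023, and -0.20 with an interval that includes 0 without the 2 shifted libraries). Without the 2 shifted libraries the medians of these 3 lists were -0.10, 0.013 and -0.14.

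Inhibitory interneuron markers had a median of -0.017 (-0.25 without the 2 shifted libraries), with 4 above and 6 below 0. At an unadjusted p under 0.05 there were 4 of 10, beside 14.9% of all genes tested (edgeR), and 1 without the 2 shifted libraries. Pax2, which marks interneuron precursors, was at 28.5, 7.47, 8.47, 14.9 and 32.3 CPM in BPtch, against 56.6, 66.9, 52.9, 37.9 and 27.99 CPM in WT, with a log2 fold change of -1.34 (95% interval -2.18 to -0.51) and an adjusted p of 0.329 (edgeR). BPtch replicates 1 and 5 overlapped the lowest WT library, replicate 5. The Pax2 value was -0.92 (95% interval -1.54 to -0.29) without BPtch replicates 2 and 3. Gad2, which makes the transmitter GABA, was at 130.0, 309.8, 256, 161 and 144 CPM in BPtch, against 54.02, 82.8, 57.7, 150.1 and 126 CPM in WT, with a log2 fold change of 1.17 (95% interval 0.38 to 1.97, and 0.63 with an interval that includes 0 without the 2 shifted libraries). BPtch replicate 2 was highest and the ranges overlapped through WT replicate 4. Kit, the receptor of molecular layer interneurons, was at 129, 87.3, 90.7, 133 and 140.3 CPM in BPtch, against 179, 152, 179, 141 and 153 CPM in WT; all 5 BPtch libraries lay below all WT libraries, and the log2 fold change was -0.40 (95% interval -0.69 to -0.12, and -0.24 with an interval that includes 0 without the 2 shifted libraries).

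Markers of neighbouring brain regions also varied with the libraries. Summed midbrain markers gave 64.6, 199, 188, 121 and 69.2 CPM in BPtch, against 39.9, 82.3, 34.6, 196 and 118 CPM in WT. Of the 8 midbrain and 10 brainstem markers, 7 in each list were tested, and 0 in each passed (edgeR); the medians were 0.80 (-0.11 without the 2 shifted libraries) for midbrain and 1.15 (0.47 without the 2 shifted libraries) for brainstem. Th, the dopamine synthesis enzyme, was at 6.31, 44.5, 34.9, 10.5 and 9.73 CPM in BPtch, against 5.27, 2.20, 1.34, 35.4 and 1.90 CPM in WT, and was high in BPtch replicates 2 and 3 and in WT replicate 4. Tph2, the serotonin synthesis enzyme of the raphe, was at 8.99, 34.2, 21.2, 14.8 and 13.8 CPM in BPtch, against 0.273, 0.564, 0.144, 10.7 and 1.96 CPM in WT, with a log2 fold change of 2.86 (95% interval 0.80 to 4.91, and 2.21 with an interval that includes 0 without the 2 shifted libraries). Otp, a factor of hindbrain and hypothalamic neurons listed with the cerebellar nuclei, was at 10.1, 28.8, 21.3, 8.00 and 9.83 CPM in BPtch, against 1.21, 2.56, 0.192, 14.6 and 1.28 CPM in WT. Both genes were low in the 4 WT libraries other than replicate 4, all 5 BPtch libraries lay above those 4, and replicates 2 and 3 were highest. The part of neighbouring tissue in the values of replicates 2 and 3 was not tested.

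Summed brainstem markers gave 81.4, 112, 101, 135 and 124 CPM in BPtch, against 84.05, 149, 12.6, 125 and 4.08 CPM in WT. WT replicates 3 and 5 were lowest, and the BPtch libraries lay inside the WT range. Choroid plexus markers gave 1356, 631, 556, 123 and 151 CPM in BPtch, against 153, 3627, 134, 3187 and 168 CPM in WT, and were highest in WT replicates 2 and 4, then in BPtch replicate 1. Of the remaining cell types, 0 members were called in any list (edgeR). The medians were 0.27 (-0.018 without the 2 shifted libraries) for oligodendrocyte markers, 0.28 (0.010 without the 2 shifted libraries) for astroglial and -0.0020 (-0.16 without the 2 shifted libraries) for microglial ones. For vascular markers the median was -0.043 (-0.037 without the 2 shifted libraries), for meningeal fibroblasts -0.30 (-0.30 without the 2 shifted libraries) and for blood 0.54 (0.31 without the 2 shifted libraries). Of the 6 blood genes tested, 3 had an unadjusted p under 0.05, beside 14.9% of all genes tested (edgeR), and 0 did without the 2 shifted libraries. In the meningeal list 4 of 10 genes had an unadjusted p under 0.05, beside 14.9% of all genes tested (edgeR), and 3 did without the 2 shifted libraries. Among the 4 were Col3a1, a fibrillar collagen, at -0.39 (95% interval -0.73 to -0.063, and -0.24 without the 2 shifted libraries), and Lum, a collagen-binding proteoglycan, at -0.53 (95% interval -0.98 to -0.083, and -0.37 with an interval that includes 0 without the 2 shifted libraries). Fabp7, the Blbp gene, was at 627, 586, 599.9, 537 and 676 CPM in BPtch, against 788, 836, 643, 602 and 575 CPM in WT, a log2 fold change of -0.11 (95% interval -0.36 to 0.15, and -0.14 without the 2 shifted libraries). The radial glial list had a median of -0.40 (-0.18 without the 2 shifted libraries), with 11 of 12 members below 0. Ddx3x, not perturbed in BPtch by the design text, had a log2 fold change of -0.12 (95% interval -0.58 to 0.34, and 0.11 without the 2 shifted libraries).

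Among the signalling genes, Notch1, the receptor that keeps progenitors and glia undifferentiated, was at 98.8, 84.7, 79.1, 96.6 and 125 CPM in BPtch, against 162, 149.7, 169, 139.6 and 127 CPM in WT, so all BPtch libraries lay below all WT libraries. Its log2 fold change was -0.56 (95% interval -0.80 to -0.31), with an adjusted p of 0.329 by edgeR and 0.0104 by DESeq2, and -0.46 (95% interval -0.73 to -0.20) without BPtch replicates 2 and 3. For BPtchD-FLPlus against BD-FLPlus it was 0.088, and those libraries overlapped. Fzd10, a Wnt receptor chosen after its value was seen, was at 5.74, 5.57, 6.04, 5.71 and 5.76 CPM in BPtch, against 13.1, 12.5, 8.43, 9.52 and 10.6 CPM in WT. The BPtch libraries lay close together and under every WT library. Its log2 fold change was -0.83 (95% interval -1.13 to -0.53, and -0.89 without the 2 shifted libraries), with an adjusted p of 0.329 by edgeR and 0.000129 by DESeq2. Of 12 Wnt targets, 4 had an unadjusted p under 0.05, beside 14.9% of all genes tested (edgeR), and 3 did without the 2 shifted libraries. The 4 were Rnf43 (-0.84), Sp5 (-1.19), Nkd1 (-0.74) and Axin2 (-0.37). Rnf43, Nkd1 and Axin2 are feedback inhibitors of Wnt signalling. Without the 2 shifted libraries these were -0.73, -0.73, -0.36 and -0.29. The list had a median log2 fold change of -0.33 (-0.21 without the 2 shifted libraries). Immediate early genes, 10 of 11 tested, had a median of -0.29 (-0.18 without the 2 shifted libraries), with 3 above 0 and 0 called (edgeR). The members with the smallest p were Ier2, at -0.85 (95% interval -1.38 to -0.31, and -0.61 without the 2 shifted libraries), and Egr1, at -1.08 (95% interval -1.93 to -0.22, and -1.03 with an interval that includes 0 without the 2 shifted libraries). Egr1 was far higher in WT replicate 2, at 37.4 CPM, than in the other WT libraries, and its log2 fold change without that library was -0.58.

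Cholesterol synthesis, on which hedgehog signalling depends, differed by small amounts: 10 of 12 genes were above 0, with a median of 0.14 (0.11 without the 2 shifted libraries) and 0 called (edgeR). For BPtchD-FLPlus against BD-FLPlus the median of this list was -0.068, with 5 genes above 0 and 7 below. Cyp51, the lanosterol demethylase, was at 170.2, 174, 165, 157 and 164 CPM in BPtch, against 147, 134, 135, 147 and 149 CPM in WT, and all BPtch libraries lay above all WT libraries. Its log2 fold change was 0.30 (95% interval 0.10 to 0.49, and 0.22 with an interval that includes 0 without the 2 shifted libraries), its adjusted p 0.329 (edgeR). Hmgcs1, at an early step of the same pathway, had a log2 fold change of 0.34 (95% interval 0.074 to 0.61, and 0.25 with an interval that includes 0 without the 2 shifted libraries).

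**Figure D5:**
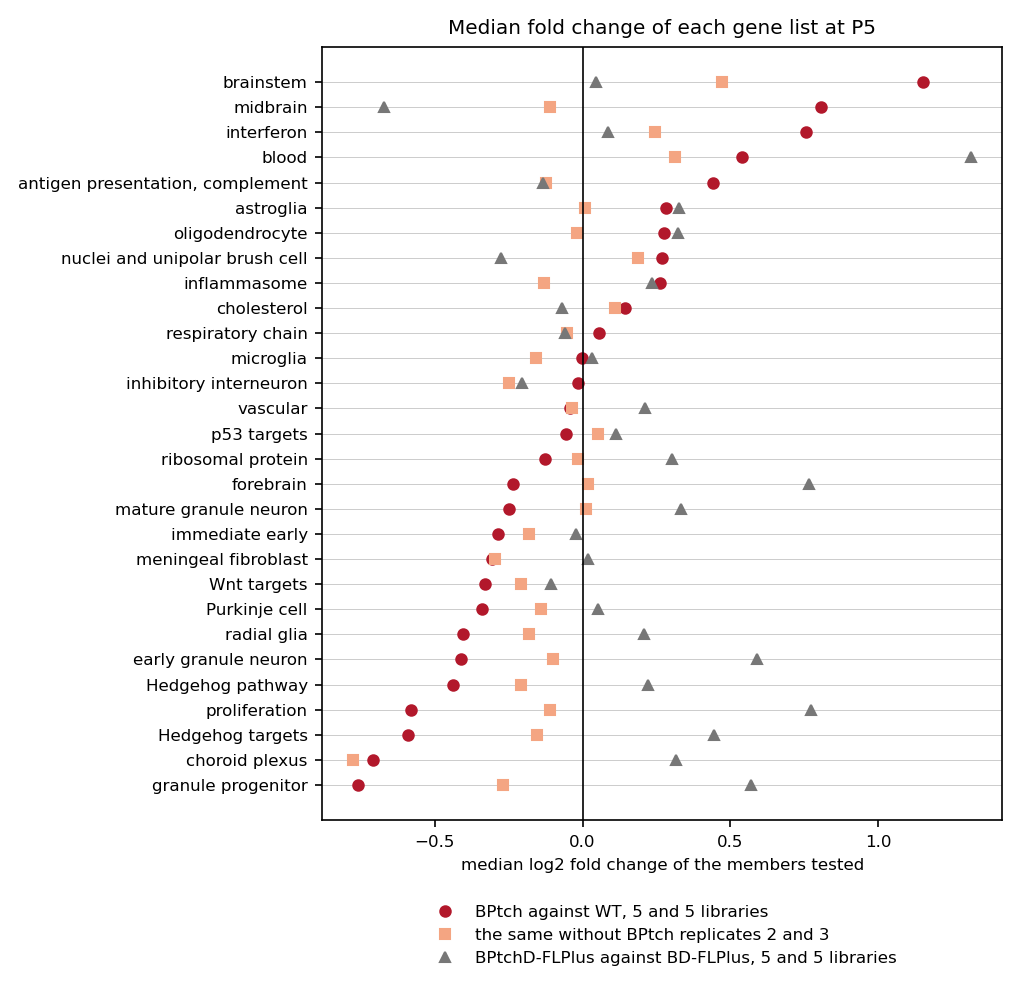
Median log2 fold change (horizontal axis) of the tested members of 29 gene lists at P5, for BPtch against WT with 5 libraries each, for the same without BPtch replicates 2 and 3, and for BPtchD-FLPlus against BD-FLPlus. The progenitor, target, proliferation and pathway medians lie between -0.76 and -0.44 with all libraries, nearer to 0 without those replicates, and above 0 in the FLPlus groups.

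Several interferon-inducible genes were highest in BPtch replicate 3. Of 14 genes in the list, 13 were tested, 12 had a log2 fold change above 0 and 0 were called (edgeR); the median was 0.76, and 0.24 without BPtch replicates 2 and 3. Irf7, the factor that amplifies the response, was at 1.70, 1.75, 4.10, 1.21 and 1.39 CPM in BPtch, against 0.624, 1.54, 0.575, 1.11 and 0.838 CPM in WT. Rsad2, an antiviral enzyme gene, was at 1.28, 1.24, 3.72, 0.965 and 0.761 CPM in BPtch, against 0.234, 0.769, 0.431, 1.41 and 0.335 CPM in WT. BPtch replicate 3 was highest in both. For Irf7 replicates 1 and 2 also lay above all WT libraries, and for Rsad2 the other 4 BPtch libraries overlapped WT. Usp18, which removes the ubiquitin-like protein Isg15, and Ifit2, an antiviral RNA-binding protein, had log2 fold changes of 1.13 (95% interval 0.34 to 1.93, and 0.97 without the 2 shifted libraries) and 0.50 (95% interval 0.13 to 0.87, and 0.34 with an interval that includes 0 without the 2 shifted libraries). Usp18 was at 1.17, 0.773, 2.35, 1.69 and 1.059 CPM in BPtch, against 0.741, 0.359, 0.911, 0.856 and 0.503 CPM in WT. Ifit2 was at 18.2, 17.3, 20.9, 17.3 and 13.4 CPM in BPtch, against 12.4, 11.2, 11.2, 14.5 and 15.6 CPM in WT. In each of these genes 4 of the 5 BPtch libraries lay above all WT libraries, the exceptions being replicate 2 for Usp18 and replicate 5 for Ifit2.

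The interferon-induced GTPases, chosen after their values were seen, were far higher in that library than in any other. Igtp was at 1.78, 2.78, 48.5, 1.61 and 1.26 CPM in BPtch, against 1.60, 1.03, 2.16, 2.87 and 1.90 CPM in WT. Iigp1 was at 0.378, 0.567, 26.7, 0.844 and 0.960 CPM in BPtch, against 0.234, 0.308, 0.335, 1.057 and 0.279 CPM in WT. Gbp3 was at 3.40, 4.12, 26.8, 2.85 and 3.91 CPM in BPtch, against 2.73, 2.77, 1.49, 4.98 and 1.62 CPM in WT. In all 3 genes BPtch replicate 3 stood alone and the other 4 BPtch libraries overlapped WT. Without BPtch replicates 2 and 3 the log2 fold changes were -0.29, 0.74 and 0.33, beside 2.66, 3.85 and 1.70 with all 5. These genes belong to families of similar sequence, and Igtp overlaps Irgm2, so reads could be split between members.

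A few genes were called by other fits, which also differ in the genes that enter and, for DESeq2, in normalisation. A fit of all 12 cerebellar groups of P5, with which the BPtch to WT contrast shares 1 estimate of the spread, called 13 of 20091 genes (0.0647%), 8 higher and 5 lower in BPtch. Of these, 7 were also among the 47 calls of DESeq2; they were chosen after their values were seen, and none was called by edgeR on the 2 groups alone. Malat1, an abundant nuclear long noncoding RNA (chromosome 19, 5795690 to 5802672, minus strand, GRCm38), was at 724, 505, 488, 304 and 399 CPM in BPtch, against 1151, 999.9, 1396, 1417 and 1034 CPM in WT. All BPtch libraries lay below all WT libraries. The log2 fold change was -1.24 (95% interval -1.71 to -0.76), with adjusted p-values of 0.329 by edgeR on 2 groups, 0.00835 by edgeR on 12 groups and 0.000188 by DESeq2. It was -1.33 (95% interval -1.94 to -0.72) without BPtch replicates 2 and 3.

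The predicted gene Gm5089 (chromosome 14, 122434854 to 122451115, minus strand) had the log2 fold change farthest from 0 of the 7, and was at 0.491, 0, 0.0760, 0.0402 and 0.430 CPM in BPtch, against 40.3, 27.8, 0.719, 14.6 and 13.9 CPM in WT. It was near 0 in all BPtch libraries and in WT replicate 3, and well above that in the other 4 WT libraries. The log2 fold change was -6.36 (95% interval -8.54 to -4.18, and -5.84 without the 2 shifted libraries). C030037D09Rik, a long noncoding RNA on chromosome 11, was at 4.83, 5.31, 4.67, 4.50 and 5.73 CPM in BPtch, against 12.1, 16.6, 12.4, 9.97 and 7.04 CPM in WT, without overlap. Akr1b8, an aldo-keto reductase gene, was at 1.51, 1.65, 1.56, 1.17 and 1.62 CPM in BPtch, against 0.429, 0.308, 0.671, 0.654 and 0.559 CPM in WT, and also did not overlap; its log2 fold change was 1.58 (95% interval 1.01 to 2.15, and 1.46 without the 2 shifted libraries). Cisd3, which encodes a mitochondrial iron-sulfur protein, Dgke, a diacylglycerol kinase gene, and Fam92a had log2 fold changes of 1.08 (95% interval 0.51 to 1.65, and 0.79 without the 2 shifted libraries), 0.48 (95% interval 0.25 to 0.72, and 0.45 without the 2 shifted libraries) and 0.44 (95% interval 0.23 to 0.65, and 0.36 without the 2 shifted libraries). The other 6 calls of the 12-group fit were the 4 interferon-induced GTPase genes Iigp1, Igtp, Gbp3 and Tgtp2, together with Dyrk1b (-0.56) and Carmn (-3.12 in that fit).

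The same allele was next read in the FLPlus groups at P5, which also differ by the Ptch1 allele. No gene passed the test between BPtchD-FLPlus and BD-FLPlus cerebella (edgeR, 0 of 18268, 0%); the unadjusted p was under 0.05 for 1338, and 23 were called by DESeq2. The count of 1338 rests heavily on single libraries: it was 5456 without BD-FLPlus replicate 1, and between 667 and 808 without BPtchD-FLPlus replicate 1, 3 or 4 or BD-FLPlus replicate 2 or 5. Ptch1 was at 263, 160.5, 219, 235 and 167 CPM in BPtchD-FLPlus replicates 1 to 5, against 259, 93.8, 156, 142 and 96.7 CPM in BD-FLPlus, a log2 fold change of 0.45 (95% interval -0.064 to 0.97). Gli1 was at 81.2, 36.8, 48.6, 56.5 and 26.3 CPM in BPtchD-FLPlus, against 89.6, 4.29, 55.2, 10.1 and 9.70 CPM in BD-FLPlus, a log2 fold change of 0.57 (95% interval -0.91 to 2.04). BD-FLPlus replicates 2, 4 and 5 were lowest, and they are the libraries at positions 0.54, 0.39 and 0.41 on the P5 to P13 axis. The BPtchD-FLPlus libraries lay between -0.022 and 0.30 on that axis.

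In these groups the directions were opposite to those of BPtch against WT for the pathway list, with 13 of 18 genes above 0 and a median of 0.22. The medians were 0.77 for proliferation genes and 0.57 for progenitor markers, with 16 of 16 and 12 of 12 members above 0 and 0 called (edgeR). For blood genes the median was above 0 in both comparisons, at 1.31 in the FLPlus groups, with 6 of 6 above 0. All 6 had an unadjusted p under 0.05 there, beside 7.32% of all genes tested, and 0 were called (edgeR). BPtch in the first comparison and BD-FLPlus in the second held the libraries far along the axis, and the part of that position in the list values was not tested. Over all 18077 genes tested in both comparisons, 35.3% had the same direction, and 47.6% of 18151 did without BPtch replicates 2 and 3. Of the 45 DESeq2 calls tested in both, 28 had the same direction, as did 859 of the 2719 genes with an unadjusted p under 0.05. Notch1, Kit, Fzd10 and Cyp51, which had no overlap between BPtch and WT libraries, overlapped between the FLPlus groups. The log2 fold changes there were 0.088 for Notch1, -0.016 for Kit and -0.49 for Fzd10. The 7 genes called by both DESeq2 and the 12-group fit had the same direction. However, Cisd3, Dgke and Fam92a were near 0 in the FLPlus groups, at 0.019, 0.071 and 0.13. Gm5089, C030037D09Rik and Akr1b8 were at -3.15, -0.59 and 0.67, and for each the libraries of the FLPlus groups overlapped. Gm5089 was at 0.402, 0.494, 0.682, 0.825 and 0.365 CPM in BPtchD-FLPlus, against 17.1, 0.883, 6.52, 0.0529 and 0.0521 CPM in BD-FLPlus. Malat1 was at 628, 668, 963, 799.9 and 663 CPM in BPtchD-FLPlus, against 1148, 1078, 1441, 783 and 1121 CPM in BD-FLPlus, a log2 fold change of -0.62 (95% interval -0.997 to -0.25) and an adjusted p of 0.582 (edgeR). These groups also differ by listing run, since BPtchD-FLPlus stood in runs 3 and 4 and BD-FLPlus in runs 1 and 2.

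No gene passed the test of a difference between the effect of BPtch at P5 and that at E16.5 or P13. The E16.5 libraries were treated as independent, although all 5 BPtch embryos share an animal number and so do 2 of the WT embryos, so spreads and intervals that use E16.5 may be too narrow. For the difference of effects between P5 and E16.5, 0 of 19761 genes passed (edgeR, 0%), the unadjusted p was under 0.05 for 2592 and 39 were called by DESeq2. Between P5 and P13, 0 of 19761 passed (edgeR, 0%), the unadjusted p was under 0.05 for 1834 and 10 were called by DESeq2. Without BPtch P5 replicates 2 and 3 the edgeR counts were 0 and 0, with 751 and 488 genes at an unadjusted p under 0.05.

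Gli1 averaged 18.2 ± 2.79 CPM in BPtch and 18.3 ± 9.36 CPM in WT at E16.5, 35.98 ± 26.5 and 72.6 ± 23.7 CPM in BPtch and WT at P5, and 20.7 ± 3.07 and 20.5 ± 11.2 CPM in BPtch and WT at P13 (SD, n = 5 each). The effect on Gli1 at P5 minus that at E16.5 was -0.95 log2 units (95% interval -2.17 to 0.27), and minus that at P13 it was -1.01 (-2.22 to 0.21). Both genotypes had their highest Gli1 mean and their widest Gli1 SD at P5, the stage of progenitor expansion. Ptch1 averaged 138 ± 18.3 CPM in BPtch and 129 ± 22.5 CPM in WT at E16.5, and 206 ± 23.6 CPM in BPtch and 206 ± 42.6 CPM in WT at P13. For Ptch1 the effect at P5 minus that at E16.5 was -0.22 (-0.66 to 0.21), and minus that at P13 it was -0.17 (-0.60 to 0.26). Mki67 averaged 136 ± 24.6 CPM in BPtch and 80.8 ± 12.97 CPM in WT at E16.5, and 52.7 ± 32.1 CPM in BPtch and 52.6 ± 24.7 CPM in WT at P13.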

How the data were processed

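Bulk RNA-seq counts of 257 mouse libraries were analysed, with 32075 genes in the deposited table of raw counts. Per the submitters' processing notes, the authors aligned reads to GRCm38 with HISAT2 and counted them with featureCounts; the sources used here give no version, annotation release or strand setting. Groups came from the labels of genotype, age and tissue. Of the gene IDs, 31759 matched GENCODE M21, which gave positions, exon lengths and overlaps. Counts of the compared groups were fitted with edgeR 4.0.16 in R 4.3.3 (TMM, filterByExpr at a minimum count of 10 and total of 15, quasi-likelihood F-test, two-sided, Benjamini-Hochberg threshold 0.05). Differences between ages were interaction terms. The standard error of a log2 fold change was its size divided by the root of the F statistic, and 95% intervals used the test's degrees of freedom. CPM are counts per 1e+06 library counts and take no TMM factor.

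The axis took genes whose WT P13 and WT P5 means differ by over 2 log2 units with a mean log2 CPM over 3 (prior count 2), without Xist and Y-linked genes. Alternatives were DESeq2 1.42.0, its size factors, all genes unfiltered, a block for replicate number, 1 fit of 12 groups and each library left out; omission of BPtch replicates 2 and 3 together and the axis position as a covariate were added after seeing the data. Members, the 30 gene lists and the tests were chosen with earlier results of these data known. The rule names all hedgehog pathway and sex chromosome genes, Ptch1, Ddx3x, Fabp7, the largest called changes and up to 4 members per list with the smallest adjusted p. Mki67, Atoh1, Mycn, Sfrp1, Isg15 and Pax6 of the lists, and 14 genes called by DESeq2 or the fit of 12 groups, were added after seeing values. Some genes that the rule names are not reported here. Scripts were tested on simulated data. Another label field gives BPtch P5 replicate 2 the number 3.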

Additional observations from a re-analysis of the deposited data

Results flagged for a closer look

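In a search for single libraries far from the other 4 of their group, 214 groups of values were tested and 14 stood out; chance gives about 1 in 20, and since several of the genes, Igtp, Iigp1, Gbp3, Tgtp2 and Akr1b8 among them, were chosen after their values were seen, the number is not read against it. BPtch replicate 3 was highest for 7 interferon-inducible genes. It held 48.5 CPM of Igtp (others 1.26 to 2.78), 26.7 CPM of Iigp1, 26.8 CPM of Gbp3, 22.9 CPM of Tgtp2, 4.10 CPM of Irf7, 3.72 CPM of Rsad2 and 3.91 CPM of Isg15. WT replicate 4 was highest for the neuronal genes Th at 35.4 CPM, Otp at 14.6 CPM and Tph2 at 10.7 CPM, and for Iigp1 at 1.057 CPM and Tgtp2 at 0.654 CPM. BPtch replicate 4 was lowest of its group for Akr1b8, at 1.17 CPM, and still above all WT libraries. Mitochondrial genes took 0.543% of counts in WT replicate 2, against 2.08% to 2.599% in the other WT libraries.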

How the results depend on the processing

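The count of 0 genes between BPtch and WT was also 0 with DESeq2 size factors in edgeR, with no low-count filter, with the replicate block, without BPtch replicates 2 and 3, and with the axis position as a covariate, which left 976 genes at an unadjusted p under 0.05. DESeq2 called 47 and the fit of 12 groups 13; leaving out each library in turn gave 0 to 2, with 2 calls without BPtch replicate 1 and 1 without WT replicate 3. For the difference between P5 and E16.5 effects DESeq2 called 39 and leaving out a library gave 0 to 1 (1 without WT P5 replicate 3, BPtch E16.5 replicate 1 or WT E16.5 replicate 5). For P5 against P13 DESeq2 called 10 and leaving out a library gave 0 to 7 (7 without WT P5 replicate 2, 3 without WT P13 replicate 2). For the FLPlus groups DESeq2 called 23, the fit of 12 groups 2, and leaving out a library 0. The cause of these differences was not tested. With the replicate block the counts of all 4 comparisons were 0. Deviations of same-numbered libraries correlated at -0.60 to 0.47 between BPtch and WT (2 of 5 pairs over 0.1) and at -0.38 to 0.79 between the FLPlus groups (3 of 5), so the libraries are taken to share only a number. For the FLPlus groups the block gave 4379 genes at an unadjusted p under 0.05, beside 1338, and a smallest adjusted p of 0.0811, beside 0.582 (edgeR). For BPtch against WT the 2757 genes at an unadjusted p under 0.05 became 4158 without BPtch replicate 1, 1323 and 1353 without BPtch replicates 2 and 3 in turn, and 1570 and 1515 without WT replicates 1 and 3 in turn. That number ran from 1557 to 3869 for P5 against E16.5 and from 921 to 3169 for P5 against P13. Of 72 named genes, 13 changed sign without a call under some alternative, among them Mki67 (-0.92 to 0.30) and Atoh1 (-1.42 to 0.040). Over 1224 combinations of gene and alternative, 21 calls were gained. The main fit called 0 genes, so no call could be reversed. With 5 libraries a group and 2 of them apart, intervals of the pathway genes reach down to -2.08 on the log2 scale, so lower levels of that size in BPtch lie within the intervals.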
